A study of Sus scrofa with 92 samples.

Results

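The genes described here are the hypoxia inducible factor (HIF) system in pig liver: the oxygen-regulated transcription factor subunit HIF1A, the oxygen sensors EGLN1 and EGLN3, and 5 genes known as HIF targets, VEGFA, ADM, SLC2A1, NDRG1 and BNIP3. They were chosen by name, with earlier results of these data known, and taken as the rows of the count table whose pig Ensembl identifier carries each symbol. Of the 8 genes, 7 have such a row among the 25322 identifiers of the table. BNIP3 was not matched to an identifier, and no value is given for it. The identifiers are ENSSSCG00000005096 (HIF1A), ENSSSCG00000010172 (EGLN1), ENSSSCG00000001963 (EGLN3), ENSSSCG00000001695 (VEGFA), ENSSSCG00000013408 (ADM), ENSSSCG00000026635 (SLC2A1, paired with its symbol through the tables of the study) and ENSSSCG00000005944 (NDRG1).

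HIF is a pair of proteins, an oxygen-sensitive alpha subunit (HIF1A or EPAS1) and the stable partner ARNT. In well oxygenated cells the prolyl hydroxylases of the EGLN family mark the alpha subunit, which the VHL ubiquitin ligase then sends for destruction. When oxygen falls, hydroxylation stops, the protein accumulates and target genes for glucose uptake, glycolysis, vessel growth and erythropoietin are switched on. Since the main control is on the protein, mRNA of HIF1A itself is not a measure of HIF activity. Some regulators of the pathway, EGLN3 among them, are themselves targets.

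Liver biopsies came from 23 juvenile male pigs that were all fasted overnight, and RNA libraries were made from a Baseline biopsy (B) and from biopsies at FR2, FR8 and FR20, named for the hours (2, 8, 20) since full resuscitation began. The 18 fasted (FS) animals received nothing further, and the 5 carbohydrate prefed (CPF) animals received a bolus of sugar syrup an hour before induction. Both groups were anesthetized, instrumented and splenectomized, then had a blunt chest injury, a controlled hemorrhage, a liver crush injury and fluid and blood resuscitation, so no group was free of shock and Baseline itself follows surgery. The labels record that 3 FS and 2 CPF animals died and that the other 18 lived.

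Of 92 libraries, 88 were used: 3 FS Baseline libraries with almost no albumin (4, 899 and 5 counts, FS animals 13, 14 and 16) and the FR8 library of CPF animal 1, which held almost no counts, were left out. That leaves 15 FS animals at Baseline and 18 at each later timepoint, and 5 CPF animals at each timepoint but FR8, which has 4. Used libraries held 6877117 to 16613261 counts on genes, and each of the 7 genes held at least 5 counts in each of them (5 for NDRG1, 380 for VEGFA). Albumin lay between 9521 and 192243 CPM (counts scaled to a common library size with TMM factors) in all 88, so the defining marker of liver was present in each. The summed CPM of 7 hepatocyte markers was lower at each later timepoint. Its FS medians were 182308 at Baseline, 128985 at FR2, 77549 at FR8 and 48491 at FR20. Albumin makes up much of this sum, with FS medians of 141496, 95802, 49875 and 27892 CPM. Tested singly against Baseline in FS animals, 3 of the 7 were lower at each later timepoint (edgeR, adjusted p under 0.05). Of all genes 21.1%, 19.5% and 16.4% were. Higher were 1, 1 and 0 of the 7, beside 20.3%, 19.9% and 17.4% of all genes. The sum of 6 neutrophil markers was 1.68 CPM in FS animals at Baseline and 15.6 at FR2 (CPF 1.92 and 15.7), with CSF3R at 0 in every group. In biopsies of mixed cells, fewer cells of a type and less RNA per cell cannot be told apart, and the part of these shifts in the changes below was not tested.

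Some libraries went against their labels. Each library was correlated with the mean profile of every timepoint over the other animals, on 8283 genes that exclude the HIF system, and 70 of the 88 were nearest to their labelled timepoint. Of the rest, 16 were nearer to another timepoint by more than 0.1 in Pearson r, 15 of them in FS animals. FS animals 13, 14 and 16 shared a pattern: the library labelled FR2 was nearest to FR8, that labelled FR8 nearest to B, and that labelled FR20 nearest to FR2. In FS animal 7 the libraries labelled B, FR2 and FR8 were nearest to FR8, FR20 and FR2, and in FS animal 6 those labelled FR8 and FR20 were nearest to each other's timepoint. The remaining 2 libraries were FR20 of FS animal 15 (nearest FR8) and FR20 of CPF animal 4 (nearest B). No library was relabelled. Results rest on the 88 libraries as labelled, and the main ones are also given for the 71 libraries left without these 5 FS animals (13 FS and all 5 CPF animals). That choice was made after seeing the data and uses the same libraries, though other genes, and how far its larger changes follow from that choice was not tested.

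**Figure D1:**
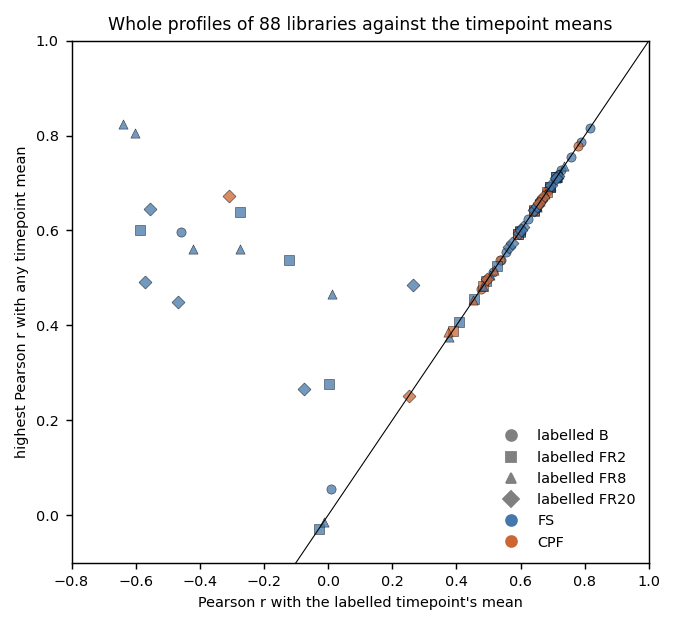
Each point is 1 of 88 libraries, with the Pearson r of its profile to the mean of its labelled timepoint on the horizontal axis and its highest r to any timepoint mean on the vertical axis; shape marks the labelled timepoint and color the fed state. Points on the diagonal (70) are nearest to their own timepoint, and 16 lie above it by more than 0.1, of which 15 are FS libraries.

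At FR2 most of the 7 genes were higher than at Baseline in FS livers. HIF1A, EGLN3, VEGFA, ADM, SLC2A1 and NDRG1 rose at FR2vB, and EGLN1 was the exception. This is 6 of 7 genes up and 0 down, with a median log2 fold change of 0.91, beside a background of 20.3% of 13667 genes up and 21.1% down and a median of −0.04 over all genes tested. The secreted peptide ADM and the oxygen sensor EGLN3 had the highest values, 3.77-fold and 2.87-fold. After FR2 the genes parted: ADM, SLC2A1, VEGFA and HIF1A were lower again at FR8, while EGLN3 and NDRG1 passed above Baseline at all 3 later timepoints and HIF1A passed again at FR20vB. A gene passed at a Benjamini-Hochberg adjusted p under 0.05 over all genes tested, with edgeR's quasi-likelihood test and a term for each animal.

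**Figure D2:**
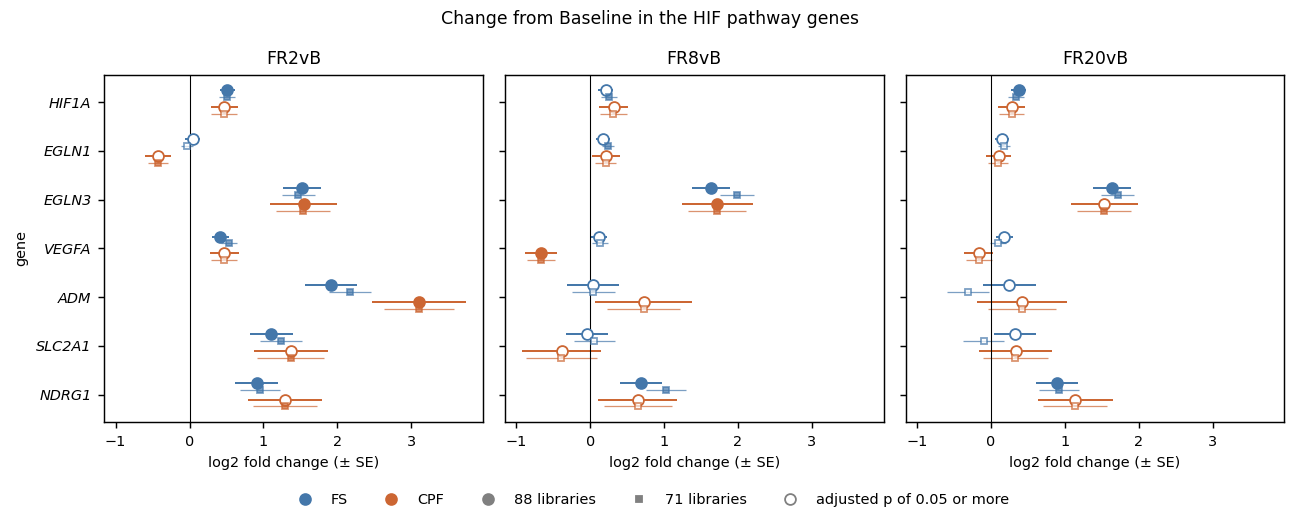
Log2 fold change from Baseline (horizontal axis, bars ± SE) of the 7 genes (vertical axis) at FR2, FR8 and FR20 in FS (blue) and CPF animals (orange); circles are the 88 libraries, squares the 71 without the 5 FS animals, and open symbols have an adjusted p of 0.05 or more. ADM stood highest at FR2vB in both groups (1.92 in FS and 3.10 in CPF) and near 0 at FR8vB in FS, while the circles of EGLN3 lay between 1.52 and 1.72 in both groups at all 3 timepoints.

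HIF1A encodes the oxygen-regulated alpha subunit. In FS animals it ranged from 11.4 to 35.9 CPM at Baseline (median 24.6, n = 15), from 20.4 to 52.0 at FR2 (median 32.7, n = 18), from 12.7 to 41.4 at FR8 (median 25.3) and from 18.9 to 43.0 at FR20 (median 29.2). The ranges overlapped at every timepoint, yet HIF1A was higher at FR2 than at Baseline in 14 of 15 animals. It rose at FR2vB by 0.51 ± 0.10 on the log2 scale (SE, adjusted p = 6.55e-05) and at FR20vB by 0.38 ± 0.10 (adjusted p = 0.00332). At FR8vB the difference was 0.21 ± 0.10 (adjusted p = 0.101), and without FS animal 14 alone it was 0.24 with an adjusted p of 0.044. The FR20vB call depended on the animal terms, as the fit without them gave 0.29 (adjusted p = 0.0881). With the 3 Baseline libraries without albumin put back (91 libraries), HIF1A lost its calls at FR2vB (0.19, adjusted p = 0.291) and FR20vB (0.05, adjusted p = 0.818).

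In CPF animals 1 to 5, HIF1A was 16.7, 30.4, 35.1, 19.7 and 24.0 CPM at Baseline and 32.2, 42.8, 36.0, 30.8 and 28.9 at FR2. All 5 animals were higher at FR2, CPF animal 3 by the least. The change of 0.47 ± 0.18 did not pass (adjusted p = 0.131), and neither did 0.32 ± 0.20 at FR8vB or 0.28 ± 0.18 at FR20vB. On the 71 libraries HIF1A rose in FS animals by 0.51 at FR2vB, 0.25 at FR8vB (adjusted p = 0.048, now passing) and 0.34 at FR20vB.

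EGLN1, the broadly expressed hydroxylase that sets HIF turnover at normal oxygen, moved little in FS animals. It ranged from 16.96 to 28.01 CPM at Baseline (median 20.7), 11.7 to 38.3 at FR2 (median 22.4), 16.2 to 34.0 at FR8 (median 24.0) and 15.5 to 29.1 at FR20 (median 23.5). The FR2vB difference was 0.04 ± 0.10 (adjusted p = 0.764, 95% interval −0.15 to 0.24), with 5 of 15 animals higher and 10 lower. At FR8vB it was 0.18 ± 0.10 (adjusted p = 0.15) and at FR20vB 0.15 ± 0.10 (adjusted p = 0.238).

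In CPF animals EGLN1 was lower at FR2 in all 5: from 24.6, 15.98, 26.5, 25.3 and 23.2 CPM at Baseline to 22.3, 15.3, 19.9, 15.8 and 12.4 in animals 1 to 5. The fitted change was −0.43 ± 0.18 and did not pass on 88 libraries (adjusted p = 0.16). On the 71 libraries, with the same CPF animals, it passed (−0.43 ± 0.14, adjusted p = 0.0285). EGLN1 in FS animals also passed there at FR8vB (0.24 ± 0.08, adjusted p = 0.012) and FR8vFR2 (0.28 ± 0.08, adjusted p = 0.00487).

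EGLN3 is a hydroxylase that is itself a HIF target and forms part of the negative feedback on HIF. FS animals ranged from 3.19 to 19.1 CPM at Baseline (median 7.64), 4.17 to 70.0 at FR2 (median 22.2), 6.32 to 51.6 at FR8 (median 29.5) and 4.61 to 80.1 at FR20 (median 24.8). At each later timepoint 12 of 18 FS libraries lay above the highest Baseline library, and the groups overlapped in the others. EGLN3 was higher than Baseline in 15 of 15 animals at FR2, 14 of 15 at FR8 and 15 of 15 at FR20. The exception at FR8 was FS animal 7, whose libraries labelled B and FR8 were nearest to FR8 and FR2.

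EGLN3 rose in FS animals by 1.52 ± 0.26 at FR2vB (adjusted p = 4.08e-06), 1.63 ± 0.25 at FR8vB (adjusted p = 1.46e-06) and 1.64 ± 0.25 at FR20vB (adjusted p = 1.1e-06). FR20 and FR8 differed by 0.00 ± 0.23 (adjusted p = 0.996, 95% interval −0.44 to 0.45). The FR8vB change on the 71 libraries was 1.99 ± 0.23, higher in 13 of 13 animals, and FR8 also stood above FR2 (0.51 ± 0.21, adjusted p = 0.0435), a step that the 88 libraries did not show (0.11 ± 0.23, adjusted p = 0.764).

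CPF animals 1 to 5 held 10.1, 7.22, 11.6, 5.84 and 2.31 CPM of EGLN3 at Baseline and 23.1, 28.3, 11.3, 22.3 and 13.5 at FR2. At FR8 animals 2 to 5 held 35.5, 23.8, 18.7 and 13.3 CPM, all above every CPF Baseline value. At FR20 the 5 animals held 20.2, 40.1, 38.2, 4.62 and 11.2 CPM. The lowest of these, CPF animal 4, is the library whose whole profile was nearest to Baseline. EGLN3 rose in CPF animals at FR2vB (1.55 ± 0.45, adjusted p = 0.0414) and FR8vB (1.72 ± 0.48, adjusted p = 0.0136). The first call was lost without CPF animal 1, 2, 4 or 5 (adjusted p up to 0.213) and the second without CPF animal 2 or 5 (adjusted p up to 0.0862). EGLN3 missed the threshold at FR20vB (1.53 ± 0.45, adjusted p = 0.0691). The last passed in the 71 libraries (1.53 ± 0.37, adjusted p = 0.00479), without CPF animal 4, FS animal 13 or FS animal 14 (adjusted p down to 0.0281), and with DESeq2 (adjusted p = 0.0213).

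**Figure D3:**
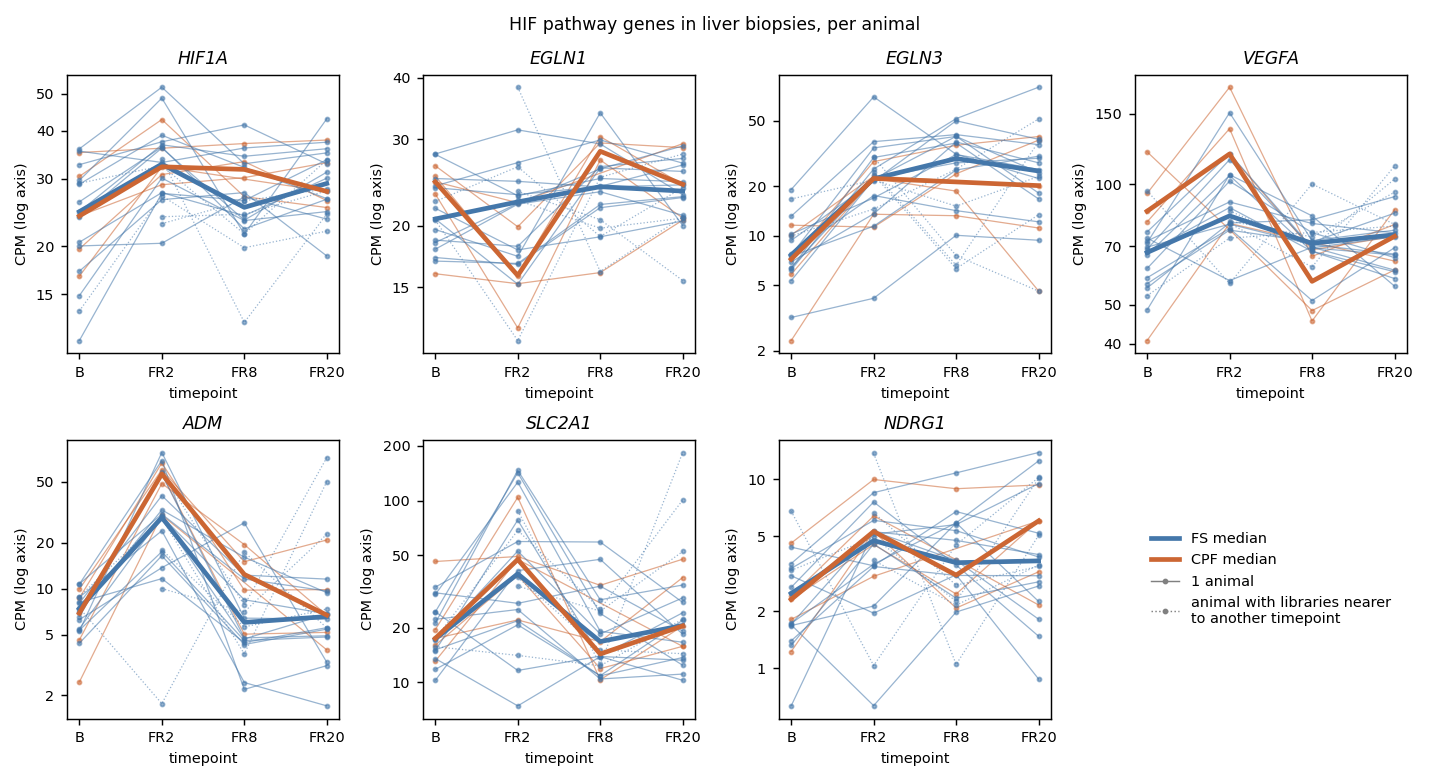
CPM on a log axis of the 7 genes in each animal over the 4 timepoints, FS blue and CPF orange, with thick lines at the group medians and dotted lines for the 5 FS animals with libraries nearer to another timepoint. ADM and SLC2A1 peak at FR2 in most animals, EGLN3 stays high to FR20 in most, and the FR20 highs of ADM (72.1 CPM) and SLC2A1 (184 CPM) belong to a dotted line, FS animal 14.

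VEGFA, the vascular endothelial growth factor that acts on endothelial receptors, rose briefly. FS animals ranged from 48.6 to 96.3 CPM at Baseline (median 67.6), 56.6 to 150.7 at FR2 (median 83.4), 51.3 to 100.2 at FR8 (median 71.3) and 55.7 to 111 at FR20 (median 74.8). It was higher at FR2 in 13 of 15 animals and reached its highest value at FR2 in 10 of 15, although the groups overlapped. The FS change was 0.42 ± 0.11 at FR2vB (adjusted p = 0.0016), 0.12 ± 0.11 at FR8vB (adjusted p = 0.395) and 0.18 ± 0.11 at FR20vB (adjusted p = 0.199). The 71 libraries gave 0.54 ± 0.11 at FR2vB (adjusted p = 4.22e-05).

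In CPF animals VEGFA was below Baseline at FR8. Animals 1 to 5 held 40.8, 94.9, 85.7, 120.4 and 80.6 CPM at Baseline and 79.9, 174.5, 119, 77.0 and 137.5 at FR2, and animals 2 to 5 held 66.1, 68.6, 48.4 and 45.6 at FR8. Each of these 4 animals fell below its own Baseline, though the groups overlapped through the low Baseline value of CPF animal 1. VEGFA fell by 0.67 on the log2 scale at FR8vB (SE 0.21, adjusted p = 0.0284), and the call was lost without CPF animal 2, 4 or 5 (−0.81 to −0.46 over all animals left out in turn, adjusted p up to 0.208) and without animal terms (−0.56, adjusted p = 0.0753). It held in the 71 libraries (−0.67 ± 0.19, adjusted p = 0.00709). At FR2vB the CPF change was 0.47 ± 0.20 (adjusted p = 0.163), with 4 of 5 animals higher.

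ADM encodes adrenomedullin, a vasodilator peptide that is also induced by inflammatory signals, and it had the highest FR2vB value of the 7 genes. FS animals ranged from 4.39 to 10.7 CPM at Baseline (median 7.39), 1.77 to 77.8 at FR2 (median 29.2), 2.19 to 26.9 at FR8 (median 6.01) and 1.71 to 72.1 at FR20 (median 6.56). At FR2, 16 of 18 FS libraries lay above the highest Baseline library. The lowest of the other 2 was FS animal 7, at 1.77 CPM, whose library labelled FR2 was nearest to FR20 in its whole profile. That library held 2.14 CPM of the neutrophil markers against a group median of 15.6. Its hepatocyte, endothelial, cholangiocyte, erythroid and striated muscle sums were also below the group medians, and its macrophage and stellate sums above. In the 71 libraries the FR2 range was 11.6 to 77.8 CPM and did not overlap Baseline, with 13 of 13 animals higher.

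ADM rose in FS animals at FR2vB by 1.92 ± 0.35 (adjusted p = 1.51e-05, 3.77-fold), and by 2.17 ± 0.29 in the 71 libraries (adjusted p = 1.46e-08). It was back at Baseline levels at FR8vB (0.04 ± 0.35, adjusted p = 0.942, 95% interval −0.64 to 0.72) and FR20vB (0.25 ± 0.36, adjusted p = 0.619). The 3 highest FR20 values, 72.1, 50.2 and 22.7 CPM, were those of FS animals 14, 6 and 16. Without the 5 animals the highest FR20 value was 11.5 CPM and the FR20vB difference was −0.31 ± 0.28 (adjusted p = 0.397).

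In CPF animals ADM also rose at FR2vB alone. Animals 1 to 5 went from 2.45, 8.68, 9.92, 6.92 and 4.62 CPM at Baseline to 30.3, 66.3, 60.0, 56.3 and 48.7 at FR2, and the groups did not overlap. At FR8 animals 2 to 5 held 5.03 to 19.4 CPM (median 12.4), and at FR20 the 5 animals held 3.97, 9.85, 20.8, 5.17 and 6.71. The FR2vB rise was 3.10 ± 0.64 (adjusted p = 0.00497, 8.60-fold), and the differences at FR8vB (0.73 ± 0.66) and FR20vB (0.42 ± 0.61) did not pass.

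SLC2A1 encodes GLUT1, a glucose transporter of many tissues, which hepatocytes express at low levels. FS animals ranged from 10.3 to 33.4 CPM at Baseline (median 17.3), 7.42 to 146.7 at FR2 (median 39.5), 10.4 to 59.2 at FR8 (median 16.8) and 10.3 to 184 at FR20 (median 20.6). At FR2, 11 of 18 libraries lay above the highest Baseline library and 1 below the lowest. SLC2A1 was higher at FR2 than at Baseline in 11 of 15 animals. It rose at FR2vB by 1.11 ± 0.29 (adjusted p = 0.00153, 2.15-fold), and differed from Baseline by −0.04 ± 0.28 at FR8 (adjusted p = 0.917) and 0.33 ± 0.29 at FR20 (adjusted p = 0.395).

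The FR20 highs of SLC2A1 were FS animal 14 (184 CPM) and FS animal 6 (101 CPM), as for ADM. These 2 libraries also held 49.7 and 35.9 CPM of the neutrophil markers, against a group median of 6.62. Their cholangiocyte sums were 308 and 190 CPM (group median 107) and their erythroid sums 403 and 380 (group median 111). Hepatocyte, endothelial and striated muscle sums were also above the group medians, while macrophage and stellate sums lay on both sides. The part of any cell type in these highs was not tested. Among the 71 libraries the highest FR20 value was 34.3 CPM, the FR20vB difference was −0.10 ± 0.28 (adjusted p = 0.807) and the FR2vB rise was 1.23 ± 0.29 (adjusted p = 0.000311). CPF animals 1 to 5 held 13.1, 19.5, 46.3, 16.02 and 17.4 CPM at Baseline and 47.4, 104.3, 49.3, 38.9 and 22.0 at FR2. All 5 were higher at FR2, yet the change of 1.37 ± 0.51 did not pass on 88 libraries (adjusted p = 0.112) and passed on 71 (1.37 ± 0.45, adjusted p = 0.037).

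NDRG1, a stress-responsive gene induced by hypoxia in many cell types, had as few as 5 counts in a library. FS animals ranged from 0.63 to 6.76 CPM at Baseline (median 2.48), 0.63 to 13.7 at FR2 (median 4.73), 1.05 to 10.8 at FR8 (median 3.61) and 0.87 to 13.8 at FR20 (median 3.69). The groups overlapped widely, and NDRG1 was higher than Baseline in 11 of 15 animals at FR2 and in 13 of 15 at FR8 and at FR20. It rose by 0.91 ± 0.29 at FR2vB (adjusted p = 0.00968), 0.69 ± 0.28 at FR8vB (adjusted p = 0.0461) and 0.90 ± 0.28 at FR20vB (adjusted p = 0.0108). The FR8vB call lay at the threshold and was lost in 13 of 23 fits that left out an animal (adjusted p up to 0.118). The 71 libraries gave 1.02 ± 0.27 (adjusted p = 0.00113), higher in 13 of 13 animals. With 91 libraries NDRG1 passed at no timepoint from Baseline, with values of 0.05, −0.025 and 0.15 (adjusted p = 0.927, 0.968 and 0.792).

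CPF animals 1 to 5 held 1.81, 2.41, 4.59, 1.22 and 2.31 CPM of NDRG1 at Baseline and 3.06, 6.39, 9.96, 5.28 and 4.51 at FR2. All 5 were higher at FR2, by 1.29 ± 0.50 in the fit (adjusted p = 0.132 on 88 libraries, 0.039 on 71). At FR20 the values were 6.01, 2.16, 9.32, 3.23 and 6.02 CPM, 4 of 5 higher than Baseline (1.14 ± 0.50, adjusted p = 0.241).

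Counted over the 7 genes in FS animals, 6 rose at FR2vB, 2 at FR8vB (EGLN3 and NDRG1) and 3 at FR20vB (HIF1A, EGLN3 and NDRG1), and 0 fell. The background at FR8vB was 19.9% of all genes up and 19.5% down, and at FR20vB 17.4% up and 16.4% down. The 2 of 7 at FR8vB is therefore not far from the share of all genes that rose. The counts in the 71 libraries were 6, 4 and 3, against 22.8%, 27.2% and 23.2% of all genes up. In CPF animals 2 rose at FR2vB (EGLN3 and ADM; background 2.00% up, 1.40% down), 1 rose and 1 fell at FR8vB (EGLN3 and VEGFA; 6.31% up, 6.99% down) and 0 passed at FR20vB (0.278% up, 0.615% down), where edgeR gave 2 at an unadjusted p under 0.05 (EGLN3 and NDRG1) and DESeq2 called 1, EGLN3.

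In the 71 libraries 5 genes passed in CPF animals at FR2vB, EGLN3, ADM, SLC2A1 and NDRG1 up (6.53% of all genes) and EGLN1 down (5.76%). EGLN3 up and VEGFA down passed at FR8vB (11.9% and 12.1%), and EGLN3 up at FR20vB (4.05%). The CPF libraries are the same in both fits, which differ in the FS libraries that share the estimated spread, in the genes tested (13394 against 13667), in the scaling and in the adjustment over all genes. The median log2 fold change of the 7 genes in CPF animals was 1.29 at FR2vB, 0.32 at FR8vB and 0.33 at FR20vB, beside −0.02, 0.04 and 0.05 over all genes.

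The course after FR2 was tested in FS animals as FR8vFR2, which shares its FR2 libraries with FR2vB. From FR2 to FR8, ADM fell by 1.88 (SE 0.34, adjusted p = 5.41e-05), SLC2A1 by 1.15 (SE 0.27, adjusted p = 0.000933), HIF1A by 0.30 (SE 0.10, adjusted p = 0.013) and VEGFA by 0.30 (SE 0.10, adjusted p = 0.0228). ADM was lower at FR8 in 16 of 18 animals, SLC2A1 and VEGFA in 14 of 18 and HIF1A in 12 of 18. These are 4 of 7 genes down and 0 up, against 13.9% of all genes down and 14.5% up. In the 71 libraries HIF1A, VEGFA, ADM and SLC2A1 fell (23.4% of all genes down) and EGLN1 and EGLN3 rose (24.2% up). VEGFA lost its call without FS animal 1, 3, 8 or 15 (adjusted p up to 0.0649) and HIF1A without animal terms (adjusted p = 0.0549) and with 91 libraries (adjusted p = 0.113). From FR8 to FR20, 0 of 7 passed (3.07% of all genes up, 3.33% down), and edgeR gave 0 also at an unadjusted p under 0.05, as did DESeq2 after adjustment.

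Within single animals the highest of the 4 timepoints fell at FR2 for ADM in 12 of 15 FS animals with all libraries and in 4 of 4 such CPF animals. HIF1A and SLC2A1 were highest at FR2 in 8 of 15 FS animals each, NDRG1 in 6 and EGLN1 in 2. EGLN3 was highest at FR8 in 8 of 15, at FR20 in 5 and at FR2 in 2. No FS animal had its highest EGLN3, ADM, HIF1A or NDRG1 value at Baseline.

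Whether prefeeding altered these changes was tested as the CPF change minus the FS change. None of the 7 genes passed at FR2vB, FR8vB or FR20vB, with edgeR or DESeq2, and neither did any gene of the table (background 0% at each timepoint in edgeR). At an unadjusted p under 0.05, 2.90%, 3.42% and 3.81% of all genes and 1, 1 and 0 of the 7 were left. EGLN1 at FR2vB differed by −0.47 (95% interval −0.87 to −0.07, adjusted p = 1). VEGFA at FR8vB differed by −0.79 (95% interval −1.25 to −0.32, adjusted p = 0.999). All 4 CPF animals were below Baseline and 12 of 15 FS animals above it, with a median FS change of only 0.03 on the log2 scale. For ADM at FR2vB the difference was 1.19 (95% interval −0.16 to 2.54, adjusted p = 1), so these data bound it loosely. EGLN3 differed by 0.02 (−0.96 to 1.01), 0.09 (−0.96 to 1.14) and −0.10 (−1.10 to 0.90) at FR2vB, FR8vB and FR20vB (95% intervals in parentheses).

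Levels of CPF and FS animals at the same timepoint gave 0 of 7 genes at B, FR2, FR8 and FR20 with edgeR and with DESeq2. The edgeR background was 0.0342% of 11688 genes at B and 0% of all genes at FR2, FR8 and FR20. The only members at an unadjusted p under 0.05 were VEGFA at B (CPF above FS by 0.36 ± 0.17, adjusted p = 0.631) and VEGFA at FR8 (CPF below FS by a log2 difference of −0.35 ± 0.14, adjusted p = 0.953). CPF animals held VEGFA medians of 85.7 and 57.3 CPM at these timepoints, and FS animals 67.6 and 71.3. Over all genes, 7.66%, 5.58%, 5.17% and 3.25% were under 0.05 unadjusted at B, FR2, FR8 and FR20.

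Animals that died were set against those that lived at each timepoint, with a term for fed state. No member passed at B, FR2, FR8 or FR20 with edgeR or DESeq2, and no gene of the table did in edgeR (0% at each, and 8.54%, 5.52%, 2.22% and 5.22% unadjusted). The lowest unadjusted p was that of EGLN3 at FR20, where the 5 animals that died ranged from 24.2 to 80.1 CPM (median 38.2) and the 18 that lived from 4.61 to 51.4 (median 21.3). The difference was 1.15 ± 0.39 (unadjusted p = 0.00735, adjusted p = 0.848), with 95% limits of 0.38 and 1.92. SLC2A1 at Baseline came next, at 14.9 to 46.3 CPM in animals that died and 10.3 to 31.1 in the 15 that lived (0.70 ± 0.24, unadjusted p = 0.00809, adjusted p = 0.394). HIF1A at FR2 was 36.0 to 48.7 CPM in animals that died and 20.4 to 52.0 in those that lived (0.39 ± 0.16, unadjusted p = 0.0211, adjusted p = 0.84). The groups overlapped in each of these. In the 71 libraries too, no member passed in the tests of fed state or survival, and the lowest adjusted p was 0.389, of EGLN3 at FR20 (died against lived, 1.21 ± 0.34).

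Among FS animals the size of the FR2vB changes was compared between genes, over the 15 animals with both libraries and 21 pairs. None passed after adjustment over the pairs, by Pearson or Spearman correlation with permutation tests of 100000 resamples (2-sided), and 5 had an unadjusted Pearson p under 0.05. The closest pair was ADM and NDRG1 (r = 0.72, permutation p = 0.0054, adjusted p = 0.1; rho = 0.66, permutation p = 0.00913, adjusted p = 0.107). Leaving out the 2 animals farthest from the median ADM change lowered r to 0.41. VEGFA and ADM had r = 0.66 (adjusted p = 0.1) but rho = 0.23 (adjusted p = 0.574), and r was −0.15 without the 2 farthest animals, so that relation rests on them. Without FS animal 8 the number of pairs that passed was 3, and without FS animal 1 it was 1. In the 13 FS animals of the 71 libraries r was 0.42 for ADM and NDRG1 (permutation p = 0.149, adjusted p = 0.39) and 0.27 for VEGFA and ADM, and the highest r was that of EGLN3 and SLC2A1 (0.58, adjusted p = 0.388).

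Across the 88 libraries, with each animal's own mean removed, ADM and SLC2A1 moved most closely together of the 21 pairs (r = 0.72), followed by VEGFA and ADM (0.61) and EGLN3 and NDRG1 (0.58). EGLN1 ran against VEGFA (−0.33) and ADM (−0.30). These values are descriptions, as the libraries of an animal share that animal and all share a time course. Measured in the same way against all tested genes with a symbol, the nearest to HIF1A were SELENOI (r = 0.81), WSB2 (0.80) and NUFIP2 (0.78), and to EGLN1 ADGRA3 (0.72), ZBTB12 (0.72) and MEX3D (0.71). EGLN3 had UNC5CL (0.83), FUBP1 (0.82) and PLIN2 (0.82), the last a coat protein of lipid droplets. VEGFA had CLCF1 (0.72), METRNL (0.71) and LYSMD2 (0.70), and ADM had SDCBP2 (0.84), EHD4 (0.83) and ITGAV (0.83). SLC2A1 had RNF19B (0.84), DUSP5 (0.81) and RIPK4 (0.79), and NDRG1 had UNC5B (0.77), F13A1 (0.76) and the glycolytic enzyme PKM (0.75), which is also on the glucose list below.

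The rest of the pathway was followed in 4 lists of 74 genes, of which 58 had an identifier and 55 were tested. In FS animals 19 of the 55 rose and 10 fell at FR2vB. At FR8vB 18 rose and 16 fell, and at FR20vB 20 rose and 12 fell. Over all genes 20.3% rose and 21.1% fell at FR2vB. The shares at FR8vB were 19.9% and 19.5%, and those at FR20vB 17.4% and 16.4%. In CPF animals 1 rose at FR2vB (CA12), 11 rose and 6 fell at FR8vB, and 1 fell at FR20vB (TF). The CPF counts moved with the fit: at FR2vB 8 rose with DESeq2, 6 with the likelihood ratio test and 11 in the 71 libraries, where 2 also fell. At FR8vB 13 rose and 10 fell in the 71 libraries and 4 and 2 with 91, and at FR20vB 6 rose and 3 fell in the 71 libraries (4.05% and 4.32% of all genes). With the 3 Baseline libraries without albumin put back (91 libraries) the FS counts were 8 up and 11 down at FR2vB. They were 10 up and 15 down at FR8vB and 11 up and 9 down at FR20vB. The shares of all genes with DESeq2, with the likelihood ratio test and with 91 libraries were not counted. The median log2 fold change at FR2vB in FS animals was 0.06 over the 55 genes, against −0.04 over all genes.

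Of 9 tested subunits and regulators, 3 rose and 4 fell at FR2vB in FS animals (median 0.02), beside 20.3% and 21.1% of all genes. EPAS1, the HIF-2 alpha subunit, was 139.7 to 318 CPM at Baseline (median 186) and 154 to 540.2 at FR2 (median 361), and it rose by 0.87 ± 0.15 (adjusted p = 3.69e-06). It fell back from FR2 to FR8 (−0.70 ± 0.14, adjusted p = 0.000142). In CPF animals it was 186 to 238 CPM at Baseline and 257 to 453 at FR2, without overlap, but the change of 0.83 ± 0.26 missed the threshold (adjusted p = 0.0594 on 88 libraries, 0.000691 on 71). ARNT, the partner subunit, fell by FR2 (−0.49 ± 0.12, adjusted p = 0.00105) and FR8 (−0.31 ± 0.12, adjusted p = 0.0365) in FS animals. TCEB1, elongin C of the VHL ligase, rose at all 3 timepoints (0.58, 0.72 and 0.45) and in CPF animals at FR8vB (0.78 ± 0.25, adjusted p = 0.0282).

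In the glucose list 9 of 17 tested genes rose and 0 fell at FR2vB in FS animals (median 0.54), 9 rose and 2 fell at FR8vB, and 10 rose and 1 fell at FR20vB. The share of all genes that rose was 20.3%, 19.9% and 17.4%. PFKFB3, whose product makes the activator of phosphofructokinase, went from a median of 0.90 CPM at Baseline (0.18 to 2.85) to 5.54 at FR2 (1.18 to 16.6), a rise of 2.49 ± 0.39 (adjusted p = 1.24e-06). In CPF animals PFKFB3 was 0.64 to 10.05 CPM at Baseline (median 6.36) and did not pass at any timepoint, and none of the pathway genes tested passed between the fed states at Baseline (51 genes) or in the difference of the changes (55 genes). The glycolytic enzymes PGAM1 (0.87, 0.94 and 0.64) and ENO1 (0.81, 0.82 and 0.39) rose at FR2vB, FR8vB and FR20vB, and both also rose in CPF animals at FR8vB (0.75 and 0.82). LDHA, lactate dehydrogenase A, rose in FS animals at FR2vB (0.70 ± 0.20) and FR8vB (1.00 ± 0.20) and in CPF animals at FR8vB (1.26 ± 0.38, adjusted p = 0.02). PGAM1, ENO1 and LDHA have processed copies in mammalian genomes, and their counts are uncertain to that extent. PDK1, the kinase that restrains pyruvate dehydrogenase, fell at FR8vB in FS (−0.63 ± 0.15) and CPF animals (−0.96 ± 0.29, adjusted p = 0.0236).

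**Figure D4:**
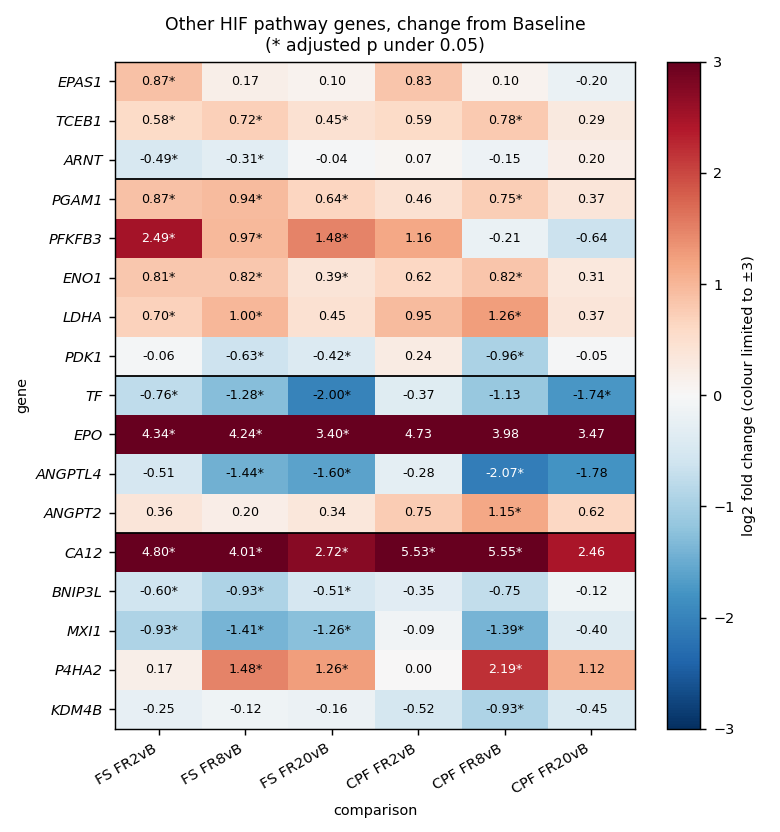
Fitted log2 fold change from Baseline of the 17 named genes of the 4 lists (rows; lines part the lists) in 3 FS and 3 CPF comparisons (columns), colored red for higher and blue for lower with the color held at 3, and a star for an adjusted p under 0.05. PGAM1, ENO1 and LDHA are red in all 6 columns, TF, ANGPTL4, BNIP3L and MXI1 are blue in FS, and the deep red of EPO and CA12 rests on Baseline counts near 0.

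Of 10 tested genes of vessels, blood and iron, 2 rose and 2 fell at FR2vB in FS animals (median −0.17), near the 20.3% and 21.1% of all genes. EPO, the hormone of red cell production, had 0 counts in 10 of 15 FS Baseline libraries (44 counts in all, highest 1.48 CPM), and in 1 of 18 at FR2 (717 counts in all, median 2.30 CPM, highest 9.96). At FR8 and FR20 the FS medians were 2.82 and 0.75 CPM, with single libraries up to 14.3 and 21.7. EPO rose at FR2vB, FR8vB and FR20vB in FS animals (adjusted p = 3.06e-05, 3.05e-05 and 0.00165), and since its Baseline is near 0 the fitted folds depend on the prior count. In CPF animals it went from 0 to 0.66 CPM at Baseline to 0.51 to 7.69 at FR2 and did not pass (adjusted p = 0.077 on 88 libraries, 0.0179 on 71). TF, the iron carrier transferrin made by hepatocytes, fell in FS animals at all 3 timepoints, by 0.76, 1.28 and 2.00 on the log2 scale, beside the lower hepatocyte marker sums at these timepoints, and in CPF animals at FR20vB (−1.74 ± 0.41, adjusted p = 0.0262). ANGPTL4, an inhibitor of lipoprotein lipase, fell at FR8vB in FS (−1.44 ± 0.33) and CPF animals (−2.07 ± 0.66, adjusted p = 0.0293). ANGPT2, an endothelial ligand of TEK, rose in CPF animals at FR8vB (1.15 ± 0.34, adjusted p = 0.0195), where the 4 endothelial markers summed to 209 to 280 CPM against 95.3 to 176 at Baseline.

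Of 19 genes of survival, matrix and chromatin, 5 rose and 4 fell at FR2vB in FS animals (median 0.04), near the 20.3% and 21.1% of all genes. CA12, a carbonic anhydrase that buffers acid outside the cell, had 0 counts in 11 of 15 FS Baseline libraries (30 counts in all) and a median of 3.37 CPM at FR2 (highest 14.3), 2.06 at FR8 and 0.63 at FR20. It rose at FR2vB in FS (adjusted p = 5.04e-07) and CPF animals (adjusted p = 0.0239), where 4 of 5 Baseline libraries had 0 counts and the FR2 values were 0.41 to 4.63 CPM. BNIP3L, a mitophagy receptor related to BNIP3, fell in FS animals at FR2vB, FR8vB and FR20vB, by 0.60, 0.93 and 0.51. MXI1, an antagonist of MYC, fell by 0.93, 1.41 and 1.26, and by 1.39 in CPF animals at FR8vB (adjusted p = 0.0369). P4HA2, a collagen prolyl hydroxylase, rose late, with a value of 0.17 ± 0.31 at FR2vB in FS animals and 1.48 ± 0.30 at FR8vB (adjusted p = 6.88e-05) and 2.19 ± 0.56 at FR8vB in CPF animals (adjusted p = 0.00823). KDM4B, a histone demethylase, fell in CPF animals at FR8vB (−0.93 ± 0.24, adjusted p = 0.00992) and had a value of −0.12 ± 0.13 there in FS animals (adjusted p = 0.453).

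The list counts at FR2vB in FS animals on the 71 libraries were 3 up and 3 down of 9 regulators, 9 and 0 of 17 glucose genes, 2 and 2 of 10 vessel, blood and iron genes, and 5 and 5 of 19 in the last list, beside 22.8% of all genes up and 26.9% down. EPAS1 then rose by 1.02 ± 0.10 and PFKFB3 by 2.72 at FR2vB.

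Markers of other cell types were followed beside these genes. At FR2vB in FS animals 3 of 4 tested neutrophil markers rose, as did 1 of 4 endothelial, 1 of 5 macrophage, 1 of 7 stellate, 1 of 7 hepatocyte and 1 of 4 cholangiocyte markers. Fallen markers were 3 of the 7 hepatocyte, 2 of the 5 macrophage, 4 of the 7 stellate and 1 of the 4 erythroid markers, and neither of the 2 striated muscle markers passed. Over all genes 20.3% rose and 21.1% fell. The summed macrophage markers went from a median of 1105 CPM at Baseline to 854 at FR2 in FS animals, the endothelial markers from 146 to 159, the stellate markers from 976 to 532, the cholangiocyte markers from 51.4 to 73.5 and the erythroid markers from 256 to 246. The striated muscle sum stayed at or below 82.3 CPM in every used library, with a median of 0.13 at FS Baseline. Which cells carried the rise of ADM, SLC2A1 or EGLN3 was not tested.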

How the data were processed

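Poly(A) RNA of pig liver biopsies was made into TruSeq libraries and sequenced as single reads on an Illumina HiSeq. Per the study's methods and processing notes, the authors aligned reads to Sscrofa10.2 with TopHat (1.5.0), counted them per Ensembl gene with HTSeq and tested with edgeR (3.2.4). The strand setting was not given in the sources used here, so overlapping and antisense genes cannot be told apart. The deposited values are raw counts per gene.

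From these counts, edgeR (4.0.16, R 4.3.3, limma 3.58.1) gave TMM factors, CPM and quasi-likelihood tests, with genes kept at a summed CPM of 10 or more (13667 genes for changes, 11688 to 12307 within a timepoint). Changes were fitted on the 88 libraries together, each animal having its own term, as the libraries of a number come from the same pig (median residual correlation 0.22 within animals, −0.01 between). A gene passed at a Benjamini-Hochberg adjusted p under 0.05. Survival was fitted within a timepoint with fed state as a term. DESeq2 (1.42.0) was an alternative. Scripts were tested on simulated counts. Pairs used permutation tests (scipy 1.17.1), and only 21 of 28 planned pairs exist because BNIP3 was not matched. P-values of changes and of their differences measure the spread of libraries left within pigs after the animal terms, shared over both fed states. Those of fed state or survival within a timepoint measure the spread between pigs. No sequencing batch was named in the sources used here.

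Left out were 3 FS Baseline libraries with almost no albumin and 1 CPF FR8 library with almost no counts. Symbols came from a gene name table and, for 700 of 12504 identifiers, from the study's tables. Named are the members, for each list the 3 genes of lowest adjusted p among those passing in an FS change from Baseline and the 2 lowest in CPF, and the 3 genes most like each member. Members and lists were chosen with earlier results of these data known.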

Additional observations from a re-analysis of the deposited data

Results flagged for a closer look

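SLC2A1 in CPF animal 3 at Baseline was 46.3 CPM, far from the other 4 CPF Baseline libraries at 13.1 to 19.5 CPM (gap over range 0.807). It was the only sample flagged in the 28 groups of a gene and timepoint that were tested. These 28 do not cover every gene, fed state and timepoint, and the other groups were not tested. Chance flags about 1 group in 20, so 1 flag is no more than chance gives. Single libraries also stood far out elsewhere, as SLC2A1 in FS animal 14 at FR20 (184 CPM, group median 20.6).

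The 3 FS Baseline libraries without albumin, which enter no comparison on the 88 libraries, all lay above the highest used FS Baseline library in 6 of the 7 genes. The share of all genes for which this holds was not counted, so the 6 of 7 cannot be read as particular to these genes. In CPM of each library's own total, the lowest of the 3 and the highest used library were 52.2 and 35.0 for HIF1A, 63.3 and 28.9 for EGLN1, and 28.2 and 19.7 for EGLN3. The same values were 110.5 and 107 for VEGFA, 13.2 and 9.61 for ADM, and 17.7 and 7.49 for NDRG1. SLC2A1 was 14.5 to 33.8 in the 3 libraries and at most 28.5 in those used.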

How the results depend on the processing

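Alternatives changed size factors, filters, tool, test, libraries, animal terms and, after seeing the data, the 5 FS animals of the label check. Of 4133 values of single genes 4072 kept their side of the threshold, though 189 of these changed sign. Another 42 lost the call, 18 gained it and 1 lost it and turned. The last was NDRG1 at FS FR8vB, −0.025 with 91 libraries. Numbers of members passing moved as follows, which is not a full list. HIF1A lost its call at FS FR20vB without the animal terms. It also lost that at FS FR8vFR2 with 91 libraries and without the animal terms. EGLN1 gained a call at FS FR8vB and FS FR8vFR2 in animals with all 4 libraries. Except for the fit without the 5 FS animals, the share of all genes passing under these alternatives was not counted. Whether the numbers of members moved differently from those of all genes was therefore not tested. At a 2-fold minimum, 3 passed at FS FR2vB, 1 at FS FR8vB, 1 at FS FR20vB, 1 at CPF FR8vB and 2 at FS FR8vFR2. With 91 libraries 4 passed at FS FR2vB (HIF1A and NDRG1 lost), 1 at FS FR8vB, 1 at FS FR20vB, 1 at CPF FR2vB and 0 at CPF FR8vB. Without the replicate block (the animal terms) 1 passed at FS FR8vB, CPF FR2vB and CPF FR8vB each. At FS FR8vB 1 passed with RLE size factors, with a summed CPM of 3 and with no filter. At CPF FR20vB 1 passed with DESeq2, with the likelihood ratio test and in animals with all 4 libraries. Without the 5 FS animals 4 passed at FS FR8vB, 5 at CPF FR2vB and 1 at CPF FR20vB. With single animals left out (changes fits held the genes tested and the dispersion trend) the numbers ran from 6 to 6 at FS FR2vB, 1 to 3 at FS FR8vB, 3 to 3 at FS FR20vB, 1 to 2 at CPF FR2vB, 0 to 2 at CPF FR8vB, 0 to 1 at CPF FR20vB, 3 to 5 at FS FR8vFR2 and 0 to 3 for the pairs. The cause of these shifts was not tested. NDRG1 had the fewest counts, down to 5 in a library.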
